A study of Mus musculus with 12 samples.

Results

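The RNA held in the polysomal pool of mock 4T1 cells was compared with the RNA held in their sub-polysomal pool. 4T1 is a mouse mammary gland cancer line, and mock cells carry a stably introduced empty vector and are otherwise unmodified. The 6 libraries were chosen by their labels, as the polysomal libraries A, B and C (gradient fractions 8 to 11) and the sub-polysomal libraries A, B and C (fractions 3 to 7) of mock cells, out of 12 libraries in the series. The other 6 libraries hold the same pools of 4T1 cells that express METTL7A1, a methyltransferase-like protein, and entered the estimate of the spread and 1 comparison at the end. All cells were treated with 0.1 mg/ml cycloheximide for 5 min before lysis, which halts ribosomes on the mRNA. Fractions 3 to 7 hold free ribosomal subunits and monosomes, and fractions 8 to 11 light and heavy polysomes.

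Library totals were 1817520 to 5738989 counts in the mock sub-polysomal pool and 5966935 to 6966156 counts in the mock polysomal pool, so that 3 counts in a library equal 0.431 to 1.65 CPM. Of 55376 genes in the count table, 12224 reached 1 CPM, a library's counts scaled to a common total, in 3 or more libraries and were tested. The study describes its gradients as run on biological replicates, but the labels do not tie the libraries to separate cultures. If they are not separate, the p-values measure only the spread between these libraries. The epithelial markers of the line were present, with a summed level of 3067 to 3485 CPM in sub-polysomal and 5147 to 6088 CPM in polysomal libraries over 9 of 9 markers. The summed level of 6 fibroblast markers was at most 7.37 CPM (Col1a2, Col3a1 and Lum at 0), that of 6 leukocyte markers at most 11.0 CPM (Ptprc, Adgre1 and Cd3e among those at 0), and that of 3 endothelial markers at most 0.166 CPM (Cdh5 and Kdr at 0). The polysomal library A stood apart from the other polysomal libraries. Among the 839 genes called lower in polysomal RNA it held the lowest of the 3 polysomal values in 718, and among the 84 called higher the highest in 62. Results without it are therefore given for the calls, the coding-length bins and some of the lists. Medians of other lists moved too. With and without it, that of hnRNP and SR splicing factors was 0.36 and 0.23, and that of ER translocation and folding 0.01 and 0.04.

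Translation starts when a 40S subunit, loaded with initiation factors, binds the capped end of an mRNA, scans the 5′UTR to a start codon and is joined by a 60S subunit. While the first ribosome elongates, further ribosomes can start on the same mRNA, and the number carried at one time sets how far the mRNA sediments in sucrose. A transcript without a long open reading frame, an mRNA whose initiation is held back, or an mRNA inside another compartment stays among the light fractions. The pools were sequenced separately, so each value is a share of its own pool, and a log2 change (polysomal over sub-polysomal, on the scale of normalised CPM) says in which pool a transcript took the larger share. It does not give the fraction of a gene's molecules that is on polysomes, and a smaller number of molecules cannot be told apart from fewer reads per molecule.

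Calls required a log2 change of more than 1.5 in size together with an adjusted p-value (edgeR) under 0.01. In mock cells 84 genes, 0.687% of those tested, were called higher in polysomal RNA, and 839 genes, 6.86%, were called lower. With an adjusted p-value under 0.05 and any size, the looser threshold used for smaller changes, 2850 genes (23.3%) were higher and 2896 genes (23.7%) were lower. Among nuclear protein-coding genes alone, 25.8% were higher and 20.8% lower at it. Counts for the lists of mRNAs below are to be read beside these shares. The median of all tested genes was 0.05, after a scaling (TMM) that itself places the centre near 0. The polysomal and sub-polysomal values of the 3 libraries each did not overlap for 6344 genes, 51.9% of those tested, with polysomal RNA higher in 3322 and lower in 3022. Without the polysomal library A, 61 genes were called higher and 545 lower.

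The 2 sets of called genes differed in kind. Of the 839 genes lower in polysomal RNA, 474 were protein-coding and 365 belonged to other gene types. Among the 84 higher genes 77 were protein-coding, which is near the share of all tested genes (10867 of 12224). The nuclear protein-coding genes called lower had a median coding length of 426 nt (quartiles 300 and 812 nt), those called higher one of 3408 nt (quartiles 2277 and 4956 nt), and those not called one of 1410 nt. Of the 467 lower genes with a coding length, 305 had at most 600 nt and 13 more than 2000 nt. Of the 77 higher genes, 0 had at most 600 nt, 60 had more than 2000 nt and 34 more than 4000 nt.

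The log2 change followed coding length among all tested mRNAs and not only the called ones, here in 6 bins that each begin where the one before ends. The median log2 change was -1.60 for 225 mRNAs with at most 300 nt of coding sequence (quartiles -2.16 and -1.08), -0.74 for 1214 mRNAs of over 300 and up to 600 nt, and -0.12 for 2039 mRNAs of up to 1000 nt. It was 0.15 for 4181 mRNAs of up to 2000 nt, 0.43 for 2456 mRNAs of up to 4000 nt and 0.69 for 741 longer ones (quartiles 0.38 and 1.02). Each step to a longer bin thus came with a higher median, and the quartile ranges of the shortest and the longest bins lay on opposite sides of 0. In the shortest bin 120 mRNAs (53.3%) were called lower and 0 higher, and in the longest bin 34 (4.59%) were called higher and 3 lower. Without the polysomal library A the 6 medians were -1.35, -0.59, -0.11, 0.14, 0.39 and 0.63.

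**Figure D1:**
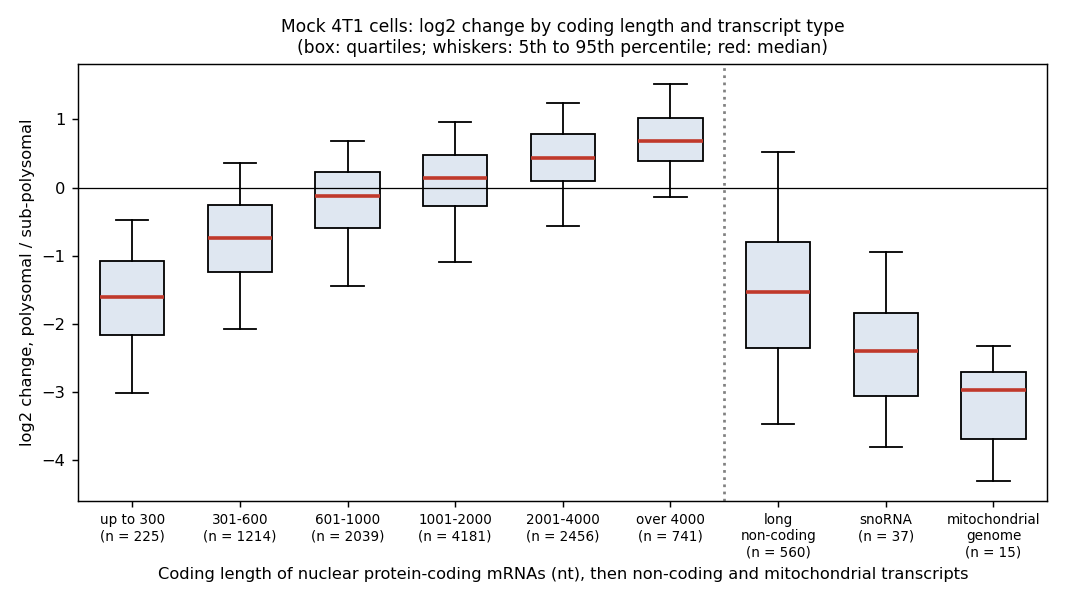
Log2 change between polysomal and sub-polysomal RNA of mock cells (vertical axis) for nuclear protein-coding mRNAs in 6 bins of coding length in nt, and for long non-coding, snoRNA and mitochondrial genome transcripts (horizontal axis). Boxes give the quartiles, red lines the medians and whiskers the 5th and 95th percentiles over genes; the median rises from -1.60 in the shortest to 0.69 in the longest bin, and the 3 other groups have medians of -1.53, -2.40 and -2.97. The long non-coding and snoRNA genes shown are the 560 of 10119 and the 37 of 1482 that passed the filter.

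Across 10856 mRNAs, which share the same 6 libraries, Spearman's rho of the log2 change was 0.55 with coding length, 0.51 with the length of the whole transcript, 0.24 with that of the 3′UTR, 0.15 with that of the 5′UTR and -0.11 with GC content. Coding length and transcript length overlap, so mRNAs were also binned by both. Among transcripts of at most 1000 nt in all, the median was -1.73 for 120 mRNAs with at most 300 nt of coding sequence, -1.07 for 389 mRNAs in the next bin and -0.37 for 131 mRNAs in the third. Among transcripts of over 1000 and up to 2000 nt it was -1.69 (52 mRNAs), -0.71 (430), -0.22 (947) and -0.01 (864) in the first 4 bins of coding length. Among transcripts over 4000 nt, a group with no upper limit, it went from -0.17 (84 mRNAs with 600 nt or less of coding sequence, but more than 300 nt) through 0.16, 0.34 and 0.53 to 0.69. The order by coding length was thus also present within the bounded groups of transcript length, and in the open group the longest coding sequences belong to the longer transcripts. An order by transcript length was likewise present within bins of coding length. In the second coding bin the medians were -1.07, -0.71, -0.52, -0.44 and -0.17 from the shortest to the longest transcripts. In the third they were -0.37, -0.22, -0.12, 0.03 and 0.16. The effects of the 2 lengths were not told apart. An ATG in the 5′UTR separated the medians little. The median was 0.13 for 5442 mRNAs with an ATG in the 5′UTR and 0.11 for 5048 without one.

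The most depleted mRNAs in polysomal RNA encoded very small proteins. Tmsb4x, which encodes the actin-sequestering peptide thymosin beta 4 in 135 nt, had 790.1, 1245 and 1040.1 CPM in the sub-polysomal libraries A, B and C and 36.3, 127 and 128 CPM in the polysomal libraries A, B and C (log2 change -3.40, SE 0.33, adjusted p = 6.15e-07). Its relative Tmsb10, also of 135 nt, had 639, 1415 and 1309 CPM in sub-polysomal and 48.2, 169.6 and 185 CPM in polysomal libraries (log2 change -3.06, SE 0.38, adjusted p = 4.9e-06). In both genes the lowest sub-polysomal library lay well above the highest polysomal one. The same separation was seen for Smim27 (small integral membrane protein, 150 nt), with 15.8, 24.2 and 14.8 CPM against 0.410, 1.51 and 1.74 CPM (log2 change -3.86, SE 0.37, adjusted p = 5.32e-07). It was the most negative of the nuclear protein-coding genes of at least 5 CPM whose libraries did not overlap.

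Of the 15 most negative nuclear protein-coding genes of that kind, the longest coding sequence was that of Ftl1, with 552 nt. Svbp, a small partner of the vasohibin enzymes that remove the terminal tyrosine of tubulin, had a log2 change of -3.19, and Lsm5, a subunit of the ring that binds U6 and decapped RNA, one of -3.09. Cox17, a copper chaperone for cytochrome c oxidase, had -3.25, Pkig, an inhibitor of protein kinase A, -3.09, and Tma7, a small protein associated with translation, -3.16. Their coding sequences span 231, 276, 192, 201 and 195 nt for Pkig, Lsm5, Cox17, Svbp and Tma7. Gm10073, a predicted gene with a coding length of 345 nt, had -3.41 and was not checked against near-identical copies.

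At the other end stood long mRNAs. Dock5, an exchange factor for Rac with 5607 nt of coding sequence, had 10.7, 15.1 and 12.4 CPM in sub-polysomal and 56.7, 42.3 and 45.8 CPM in polysomal libraries (log2 change 1.90, SE 0.18, adjusted p = 5.66e-07). Rad54l2, a helicase of the SNF2 family (4404 nt), had 6.77, 5.04 and 6.32 CPM against 32.5, 22.8 and 21.8 CPM (log2 change 2.10, SE 0.22, adjusted p = 8.64e-07). For B4galnt3, a glycosyltransferase of 2961 nt, the values were 11.9, 7.55 and 9.48 CPM and 46.6, 33.8 and 37.0 CPM (log2 change 2.06, SE 0.21, adjusted p = 9.76e-07). Each polysomal library lay above each sub-polysomal library for these mRNAs.

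The 15 largest positive changes of nuclear protein-coding genes, under the same conditions, ran from 1.78 to 2.42. Tiam1 (log2 change 1.802) and Tbc1d16 (1.99) regulate Rac and Rab proteins, and Usp9x (2.12) is a large deubiquitinase. Ankrd52 (1.98) is a subunit of a phosphatase complex, Tln2 (1.78) links integrins to actin, and Gpr161 (2.42) is an orphan receptor of the Hedgehog pathway. Gpr161 (1587 nt), Fam199x (1167 nt, log2 change 1.88) and Snx33 (1725 nt, log2 change 1.86) were the members of this group with less than 2000 nt of coding sequence. Cmip (1.79), Tanc1 (1.86) and Ankrd26 also belonged to it. Genes with less than 5 CPM were not considered for these 2 groups of 15. The call of Snx33 was lost without the sub-polysomal library C (log2 change 1.32), and that of Tln2 after thinning to equal depth (1.08).

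Some mRNAs went against their length, and the following were picked after their values had been seen. Ppia, which encodes cyclophilin A in 495 nt, had 1292, 1495 and 2346 CPM in sub-polysomal and 2706, 2731 and 2628 CPM in polysomal libraries (log2 change 0.65, SE 0.19, adjusted p = 0.00973), and Cbx5, the heterochromatin protein HP1 alpha (576 nt), a log2 change of 1.26 (adjusted p = 1.54e-05). Tagln2 (600 nt), an actin-binding protein, had 0.71 (adjusted p = 0.000891). In the opposite direction, Slc25a39, a mitochondrial carrier for glutathione of 1080 nt, had 710.5, 1417 and 1097 CPM against 96.0, 201 and 206 CPM (log2 change -2.68, SE 0.27, adjusted p = 7.01e-07). Arpc1b, a subunit of the Arp2/3 complex (1119 nt), had -2.10, and among mRNAs over 2000 nt the kinase Irak1 had -1.62 and Gas2l1, a linker of actin and microtubules, -1.85. All 4 were called lower.

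The mRNAs of the translation machinery did not form 1 group. Ribosomal protein mRNAs carry a 5′ terminal oligopyrimidine (TOP) motif, a cap-adjacent C followed by pyrimidines, through which mTOR signalling adjusts their translation. Of 80 tested mRNAs of cytosolic ribosomal proteins (of 82 listed), 17 were called lower in polysomal RNA and 0 higher, with a median log2 change of -0.97, against 0.12 for all nuclear protein-coding genes. At the looser threshold 67 were lower and 0 higher. Without the polysomal library A the median was -0.86 and 15 were called. Their median coding length was 451.5 nt. Set against the median of all mRNAs in the same coding-length bin, 60 lay below and 20 above it, and the median distance was -0.30. Ribosomal protein genes have many near-identical pseudogenes, and how the counting treated reads that match several genes is not stated, so these levels are uncertain.

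Within the family the spread was wide. Rplp0 and Rplp1, which form the acidic stalk of the large subunit, had 6863, 13147 and 11588 CPM and 6546, 11888 and 10276 CPM in sub-polysomal libraries. In the polysomal libraries they had 943, 1353 and 1731 CPM and 732, 1381 and 1436 CPM (log2 change -2.97, SE 0.29, adjusted p = 5.32e-07 for Rplp0 and log2 change -3.02, SE 0.28, adjusted p = 3.86e-07 for Rplp1). Rplp0 (954 nt) and Rpsa (888 nt, log2 change -2.53, SE 0.25, adjusted p = 6.15e-07) were thus lower although their coding sequences are long for the family. Rps12 (399 nt) had a log2 change of -2.67 and Rpl41, with 78 nt the shortest coding sequence of the called genes, one of -2.98. By contrast, Rpl4 (1260 nt) had 1375, 1744 and 1895 CPM in sub-polysomal and 1965, 1670.4 and 1969.5 CPM in polysomal libraries, and the values overlapped (log2 change 0.16, adjusted p = 0.434).

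The annotated first 30 bases of 3 TOP mRNAs are printed to show that like starts occurred on mRNAs with unlike values. Capitals mark the pyrimidine run at the annotated start (GENCODE M21 transcripts, GRCm38; Rps2 at chr17:24720110-24720139, plus strand; Pabpc1 at chr15:36608944-36608973, minus strand; Rpl4 at chr9:64173375-64173404, plus strand; all in exon sequence of the 5′UTR).
Rps2: CTTCTTCTTCTTCgggagaacacgtgagtc
Pabpc1: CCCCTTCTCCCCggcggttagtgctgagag
Rpl4: CTTTTCCTgtgggagcagccgggtagagag
Rps2, of the small subunit, had a log2 change of -2.70 (adjusted p = 4.83e-07), whereas Rpl4 was not called. Rps2, Rpl4 and Rpl41 were chosen after their values had been seen. A start with C and at least 4 further pyrimidines was annotated for 239 of 10494 tested mRNAs with a 5′UTR of at least 20 bases (2.28%). The median log2 change was 0.09 with such a start and 0.12 without it. Annotated starts often miss the true cap site by some bases, so TOP mRNAs may be missing from this count.

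Pabpc1, the cytoplasmic poly(A)-binding protein, whose mRNA is itself a TOP mRNA that binds its own product in the 5′UTR, had 2773, 4060.1 and 4152 CPM in sub-polysomal and 668, 993 and 948 CPM in polysomal libraries (log2 change -2.07, SE 0.20, adjusted p = 6.04e-07). It was the only one of 28 non-ribosomal TOP mRNAs that was called, while 10 were higher and 7 lower at the looser threshold and the median was 0.22. Eef1a1, the elongation factor that delivers aminoacyl-tRNA, had 2366, 2772 and 3130.4 CPM against 4828, 3598 and 3946 CPM (log2 change 0.58, SE 0.18, adjusted p = 0.0107), and Npm1, the nucleolar chaperone, a log2 change of 0.51 (adjusted p = 0.0261). Both were higher in polysomal RNA at the looser threshold. Tpt1, a small TOP mRNA of 519 nt, had 2619.6, 3077 and 2526 CPM against 1214, 1228 and 1149.9 CPM (log2 change -1.19, SE 0.16, adjusted p = 1.11e-05) and was lower at that threshold. The translocase Eef2 had a log2 change of 0.33 (adjusted p = 0.124).

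mRNAs of initiation factors sat closer to the centre. Of 39, none was called, 12 (30.8%) were higher and 4 (10.3%) lower at the looser threshold, and the median was 0.23. Among all nuclear protein-coding genes the shares were 25.8% and 20.8%, and the median was 0.12. Eif4a1, the helicase of the cap-binding complex, had 922, 945 and 1121 CPM in sub-polysomal and 2091, 1649 and 1589.9 CPM in polysomal libraries (log2 change 0.83, SE 0.16, adjusted p = 0.000319), and Eif4g1, its scaffold, a log2 change of 1.18 (adjusted p = 7.55e-06). Both were higher at that threshold. Eif1, a small factor of 342 nt that guards start codon choice, had 1220.1, 1371 and 1429 CPM against 497, 864 and 941 CPM (log2 change -0.80, SE 0.20, adjusted p = 0.00256) and was lower. Eif5a had a log2 change of -0.30 (adjusted p = 0.165).

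Aminoacyl-tRNA synthetases charge tRNAs with their amino acids. Of 37 tested mRNAs 17 were higher and 2 lower at the looser threshold, with a median of 0.32. Gars, the glycine enzyme, had 123.02, 158 and 142 CPM in sub-polysomal and 352, 266 and 295 CPM in polysomal libraries (log2 change 1.10, SE 0.15, adjusted p = 1.13e-05), and Aars, the alanine enzyme, a log2 change of 1.20 (adjusted p = 7.67e-06). Sars, the serine enzyme, had 0.52 (adjusted p = 0.00438). The most abundant members, Lars2 and Kars, had -1.57 (adjusted p = 0.0578) and -0.14 (adjusted p = 0.418) and missed the looser threshold. Lars2 was lower in each polysomal library than in each sub-polysomal one, and the pools of Kars overlapped. DEAD-box and DEAH-box helicases, which remodel RNA, had 29 higher and 1 lower of 49 at the looser threshold (median 0.48). Ddx21, of the nucleolus, had 131, 112 and 113 CPM against 273, 197 and 195 CPM (log2 change 0.91, SE 0.15, adjusted p = 7.93e-05), and Ddx5, Ddx3x and Ddx39 had 0.70, 0.94 and 0.48. Of 33 hnRNP and SR splicing factors 13 were higher and 3 lower (median 0.36), with Hnrnpa2b1 at 0.84 and Hnrnpk at 0.63, and of 54 ribosome biogenesis factors 22 and 9 (median 0.23). Against the median of their coding-length bins, 21 synthetases lay above and 16 below, 31 helicases above and 18 below, 25 splicing factors above and 8 below, and 28 biogenesis factors above and 26 below.

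**Figure D2:**
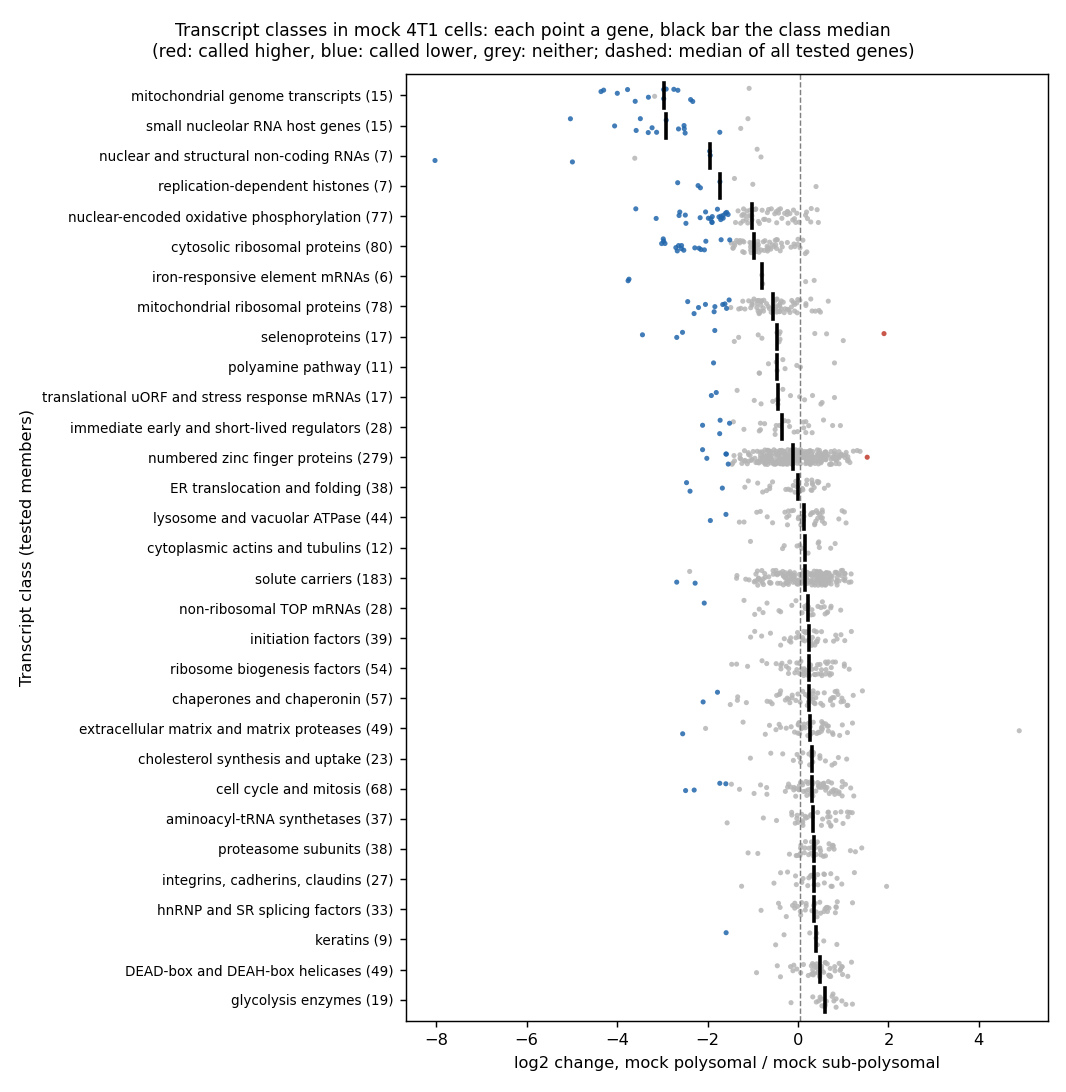
Log2 change between polysomal and sub-polysomal RNA of mock cells (horizontal axis) for each tested gene of 31 transcript classes (vertical axis, with the number tested), with a black bar at each class median. Called genes are red (higher) or blue (lower) and the others grey; mitochondrial genome transcripts (-2.97) and small nucleolar RNA host genes (-2.91) have the lowest medians and glycolysis enzymes (0.60) the highest.

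Oxidative phosphorylation was low in polysomal RNA from both genomes. Respiratory complexes combine subunits encoded in the nucleus, most of them small, with a few encoded and translated inside mitochondria, on ribosomes that do not take part in cytoplasmic polysomes. Of 77 nuclear mRNAs of this class 23 were called lower and 0 higher, with a median of -1.02, and 56 were lower at the looser threshold. Without the polysomal library A 13 were called and the median was -0.85. Their median coding length was 426 nt, and the median distance from the coding-length bins was -0.20 (50 below and 26 above). Atp5md, a small subunit of ATP synthase (177 nt), had 804, 1182 and 604 CPM in sub-polysomal and 29.2, 87.4 and 98.5 CPM in polysomal libraries (log2 change -3.59, SE 0.34, adjusted p = 4.39e-07). Cox6c, of cytochrome c oxidase (231 nt), had 1205, 1602 and 1442 CPM against 248, 442 and 444 CPM (log2 change -1.91, SE 0.20, adjusted p = 1.07e-06). Both were separated without overlap, as was Ndufc1 of complex I (-3.14).

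Other abundant subunits lay nearer to 0. Atp5b, the catalytic beta subunit of ATP synthase (1590 nt), had 1625, 1571 and 1649 CPM against 2398, 1869 and 2228 CPM and missed the looser threshold although its pools did not overlap (log2 change 0.42, adjusted p = 0.0538). Cox4i1 (510 nt) and Atp5g3 (426 nt) had log2 changes of -0.76 and -1.05 and were lower at that threshold. The nuclear mRNAs of mitochondrial ribosomal proteins had less negative values, but not when set against mRNAs of like coding length. Their median distance from the coding-length bins was -0.23 (55 below and 23 above). Of 78 mRNAs, 10 were called lower and 0 higher (median -0.56, 6 called without the polysomal library A). They ran from Mrpl42 with -2.44 to Mrps31 with 0.67, Mrpl18 had 298, 434 and 389.7 CPM against 59.0, 124 and 131 CPM (log2 change -1.84, SE 0.23, adjusted p = 5.15e-06), and Mrpl12, Mrpl13 and Mrpl20 had -0.40, -0.77 and -0.52.

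All 15 tested transcripts of the mitochondrial genome were lower in each polysomal library than in each sub-polysomal library, and 13 were called, with a median of -2.97 (-2.78 without the polysomal library A, 13 called). mt-Co1, of cytochrome c oxidase, had 13601, 14689.5 and 18284 CPM in sub-polysomal and 1447, 4752 and 3074 CPM in polysomal libraries (log2 change -2.33, SE 0.33, adjusted p = 1.71e-05). For mt-Nd1, of complex I, the values were 8639.8, 12728 and 19013 CPM against 339, 978 and 653 CPM (log2 change -4.36, SE 0.39, adjusted p = 3.32e-07). mt-Cytb had a log2 change of -2.75 and mt-Nd2 one of -2.97. As a share of all counts, the transcripts of the mitochondrial genome made up 6.87%, 6.71% and 8.49% of the sub-polysomal libraries A, B and C (mean 7.36% ± 0.985, SD, n = 3) and 0.684%, 2.14% and 1.43% of the polysomal libraries (1.42% ± 0.726, SD, n = 3). The groups did not overlap, and the two-sided exact permutation test gave p = 0.1, the smallest value that 3 against 3 allows.

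The iron storage mRNAs were among the most depleted of all. Iron regulatory proteins bind a stem-loop, the iron-responsive element (IRE), in the 5′UTR of ferritin mRNAs when iron is scarce and keep the 40S subunit from loading. In the 3′UTR of the transferrin receptor mRNA the same element protects the mRNA from decay. The IRE of 3 mRNAs is printed because they share its loop but not their values, with the loop in capitals (GENCODE M21 transcripts, GRCm38; Fth1 at chr19:9982732-9982761, plus strand; Ftl1 at chr7:45459778-45459807, minus strand; Slc40a1 at chr1:45925464-45925493, minus strand). All 3 lie in exons and in the 5′UTR.
Fth1: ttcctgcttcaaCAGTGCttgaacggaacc
Ftl1: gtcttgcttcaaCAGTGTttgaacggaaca
Slc40a1: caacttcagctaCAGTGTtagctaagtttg
They were found by searching the sense strand of the 5′UTRs for a C, 5 bases, the loop CAGTGN and 5 bases that pair with the 5 before the loop (G and T allowed as a pair), a pattern held by 16 of 10494 tested 5′UTRs (0.152%). A match is a description of the letters and not a proven element.

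Fth1, the ferritin heavy chain (549 nt), had 9461, 12420.0 and 11291 CPM in the sub-polysomal libraries A, B and C and 484, 919 and 1049 CPM in the polysomal libraries A, B and C (log2 change -3.76, SE 0.31, adjusted p = 1.39e-07). Ftl1, the light chain (552 nt), had 1507, 2679 and 2523 CPM against 121, 183 and 199 CPM (log2 change -3.74, SE 0.29, adjusted p = 7.76e-08). The lowest sub-polysomal library lay far above the highest polysomal one in both genes, and mRNAs of the same coding-length bin had a median of -0.74. Slc40a1, the iron exporter, was near the detection limit, with 1.69, 1.89 and 1.58 CPM against 0.546, 1.24 and 1.12 CPM (log2 change -0.80, adjusted p = 0.210), and was named for its sequence after its values had been seen. Tfrc, the transferrin receptor, had 594, 425 and 877 CPM in sub-polysomal and 923, 688 and 522 CPM in polysomal libraries, and the values overlapped (log2 change 0.17, adjusted p = 0.597). Its sign turned without the polysomal library A (-0.07) or the sub-polysomal library B (-0.05). Of the 6 tested IRE mRNAs (of 8 listed) 2 were called lower, both ferritins, and 0 higher, with a median of -0.79. Ferritin genes have processed pseudogenes, so reads may be shared.

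Selenoprotein mRNAs spread across both pools. They contain an in-frame UGA that is read as selenocysteine with the help of an element in the 3′UTR, and otherwise ends translation. The codon and its surroundings are printed for 4 of them, to show where the ribosome meets it, with the codon in capitals (GENCODE M21 coding sequences, GRCm38; Selenow within chr7:15920452-15922256, minus strand, across an intron; Gpx1 at chr9:108339439-108339465, plus strand; Gpx4 at chr10:80054725-80054751, plus strand; Txnrd1 at chr10:82896025-82896051, plus strand).
Selenow: tattgtggagctTGAggctataagccc
Gpx1: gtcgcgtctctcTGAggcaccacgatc
Gpx4: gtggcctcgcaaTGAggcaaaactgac
Txnrd1: cagtctggctgcTGAggttaagcccca
It is codon 13 of 89 in Selenow, 47 of 202 in Gpx1, 73 of 198 in Gpx4 and 498 of 500 in Txnrd1, counting the start codon as 1 and including the stop codon. Their coding lengths also differ (267, 606, 594 and 1500 nt), and whether the place of the codon matters was not tested. Selenow, a small thioredoxin-like protein, had 235, 435 and 382 CPM in sub-polysomal and 13.4, 38.486 and 45.2 CPM in polysomal libraries (log2 change -3.44, SE 0.31, adjusted p = 3.59e-07). Gpx1, the cytosolic glutathione peroxidase, had 1056, 2161 and 1612 CPM against 129, 338 and 356 CPM (log2 change -2.55, SE 0.30, adjusted p = 3.66e-06), and Gpx4, which protects membrane lipids, had a log2 change of -1.84 (adjusted p = 2.1e-06). All 3 were lower in each polysomal library. Txnrd1, the cytosolic thioredoxin reductase, went the other way, with 89.2, 79.9 and 80.5 CPM against 192, 154 and 152 CPM (log2 change 1.00, SE 0.14, adjusted p = 1.61e-05), and was higher at the looser threshold.

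Of 17 tested selenoprotein mRNAs 4 were called lower and 1 higher (median -0.47), and 11 were lower and 3 higher at the looser threshold. Against the median of their coding-length bins 10 lay below and 7 above (median distance -0.54). The one called higher was Txnrd3, a thioredoxin reductase with a glutaredoxin domain, at 2.26, 2.20 and 0.790 CPM against 8.19, 5.09 and 4.10 CPM (log2 change 1.90, SE 0.40, adjusted p = 0.00079). Its call was lost without the sub-polysomal library C (log2 change 1.37) and after thinning to equal depth (1.19). Selenof, of the ER (489 nt), had a log2 change of -1.31 (adjusted p = 4.15e-05). The median without the polysomal library A was -0.38.

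mRNAs that are translated through upstream open reading frames were also divided. The upstream frames of Atf4 and Atf5, activators of the stress response, hold ribosomes back from the main frame until eIF2 is phosphorylated. Atf4 had 875, 1409 and 1393 CPM in sub-polysomal and 199.6, 393 and 382 CPM in polysomal libraries (log2 change -1.92, SE 0.23, adjusted p = 4.55e-06), and Atf5 had 57.0, 100.1 and 97.7 CPM against 15.8, 29.6 and 28.4 CPM (log2 change -1.81, SE 0.23, adjusted p = 7.67e-06). Both were called lower, without overlap between the pools. Ddit3, a target of Atf4 that promotes cell death, had 16.9, 26.1 and 24.1 CPM against 4.10, 9.62 and 13.2 CPM (log2 change -1.35, SE 0.27, adjusted p = 0.000521) and was lower at the looser threshold. Of the phosphatase subunits that reverse eIF2 phosphorylation, log2 changes were 0.53 for the constitutive Ppp1r15b (adjusted p = 0.0120) and -0.44 for the inducible Ppp1r15a (adjusted p = 0.0814). Of 17 mRNAs of this list 2 were called lower and 0 higher, and 14 lay below and 3 above the median of their coding-length bin. The median of the list was -0.44 (-0.25 without the polysomal library A).

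Polyamine synthesis is controlled by antizyme, made by a ribosomal frameshift on Oaz1 mRNA, and by the antizyme inhibitor Azin1. Oaz1 had 647, 873 and 573 CPM in sub-polysomal and 112, 198 and 263 CPM in polysomal libraries (log2 change -1.87, SE 0.24, adjusted p = 8.96e-06) and was called lower. Azin1 had 274, 146 and 202 CPM against 413, 374 and 296 CPM (log2 change 0.81, SE 0.19, adjusted p = 0.00182) and was higher at the looser threshold. Odc1, the rate-limiting decarboxylase that antizyme degrades, had a log2 change of -0.48 (adjusted p = 0.0109). Antizyme and its inhibitor thus took their larger shares in opposite pools. Of 11 tested mRNAs of the pathway 1 was called, 1 was higher and 4 were lower at the looser threshold, and the median was -0.46.

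Of the lists examined, glycolysis enzymes had the highest median, 0.60 (0.51 without the polysomal library A). Of 19 mRNAs 14 were higher and 0 lower at the looser threshold, against 23.3% and 23.7% of all genes, and none was called. Set against mRNAs of like coding length, 17 lay above and 2 below the bin's median. Pkm, the pyruvate kinase of proliferating cells, had 1060.4, 1010.0 and 969 CPM in sub-polysomal and 2298, 1765 and 1889.5 CPM in polysomal libraries (log2 change 0.97, SE 0.16, adjusted p = 7.01e-05), and Ldha, which makes lactate, had 1234, 1338 and 1333 CPM against 2110.4, 1799 and 2119 CPM (log2 change 0.63, SE 0.16, adjusted p = 0.00358). Neither gene's pools overlapped. Gapdh had a log2 change of 0.53, Tpi1 one of 0.60 and Pfkl, a subunit of phosphofructokinase, one of 1.20. Gapdh and other abundant enzymes have pseudogenes that may take part of their reads.

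Proteasome subunits and chaperones serve protein turnover and folding. Of 38 proteasome mRNAs 17 were higher and 2 lower at the looser threshold (median 0.35), and 34 of 38 lay above the median of their coding-length bin. Subunits of the regulatory particle had the largest changes, with Psmd13 at 1.41, Psmd2 at 1.27 and Psmd1 at 1.16. The most abundant members, all of the core, lay nearer to the centre. Psma6 had 0.38 and was higher at the looser threshold. Psma7, Psmb6 and Psmb4 had -0.04, 0.05 and 0.24, with overlapping pools, and did not pass it. Of 57 chaperone mRNAs 21 were higher and 10 lower (median 0.25). Hsp90ab1, a cytosolic chaperone of kinases, had 1334, 1285 and 1211 CPM against 2681, 1879.6 and 2199 CPM (log2 change 0.82, SE 0.17, adjusted p = 0.000686), and Cct5, of the chaperonin that folds actin and tubulin, had 0.88 (adjusted p = 0.000195). Hspa5 and Hspa8 had 0.32 and -0.21 and did not pass. The short co-chaperonin Hspe1 (309 nt) had 1209, 1067 and 599.5 CPM against 169, 220.2 and 281 CPM (log2 change -2.10, SE 0.23, adjusted p = 1.3e-06).

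mRNAs of the endoplasmic reticulum and the cell surface were listed separately. For 38 mRNAs of ER translocation and folding the median was 0.01, and the 3 called lower were Sec61g, Sec61b and Srp19. The 3 subunits of the Sec61 channel, the pore through which nascent secretory proteins enter, diverged. Sec61a1, which forms the pore (1431 nt), had 223, 268 and 247 CPM against 429.9, 321 and 424 CPM (log2 change 0.67, SE 0.16, adjusted p = 0.00264), while Sec61b (291 nt) had 340.3, 458 and 306 CPM against 35.9, 84.0 and 90.8 CPM (log2 change -2.39, SE 0.25, adjusted p = 1e-06) and Sec61g (207 nt) a log2 change of -2.47. Integrins, cadherins and claudins had a median of 0.36 with 8 (29.6%) higher and 0 lower of 27 at the looser threshold. Among all nuclear protein-coding genes 25.8% were higher and 20.8% lower. Of these, 11 lay below and 16 above the median of their coding-length bin. Among them the integrin subunits Itga3 and Itgb1 had 0.86 and 0.73. Of 49 matrix proteins and proteases 15 were higher and 2 lower at that threshold (median 0.27), while 31 lay below and 18 above the median of their coding-length bin (median distance -0.15). Of 183 solute carriers 49 (26.8%) were higher and 20 (10.9%) lower at that threshold (median 0.16). Of 44 lysosomal proteins and subunits of the vacuolar ATPase 10 (22.7%) were higher and 6 (13.6%) lower at that threshold (median 0.12). Of 23 mRNAs of cholesterol synthesis and uptake 7 (30.4%) were higher and 2 (8.7%) lower at that threshold (median 0.30). The shares higher of solute carriers and of the lysosomal list were thus near that of all nuclear protein-coding genes, whose median was 0.12.

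Of 9 keratins, the intermediate filaments of epithelia, 4 were higher and 1 lower at the looser threshold (median 0.40), with 356, 412 and 398 CPM of Krt8 in sub-polysomal and 800.5, 599.8 and 717 CPM in polysomal libraries (log2 change 0.86, SE 0.16, adjusted p = 0.000204) and a log2 change of 0.57 for Krt7. Of 12 actins and tubulins 5 were higher and 1 lower (median 0.15), with Tubb5 at 0.82, Tubb6 at 0.47, Actb at 0.08 and Tuba1b at -0.34. The pools of Actb and Tuba1b overlapped, and neither gene passed. Of 68 cell cycle mRNAs 25 were higher and 10 lower at the looser threshold (median 0.30). Mcm5, of the replicative helicase, had 173, 177 and 178 CPM against 418, 318 and 357 CPM (log2 change 1.05, SE 0.14, adjusted p = 1.31e-05), and Ccnd1, cyclin D1, a log2 change of 0.64. The 4 called lower were centromere proteins, among them Cenpw (-2.49) and Cenpm (-2.30).

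Labile regulators had a median below that of all genes. Of 28 immediate early and short-lived mRNAs 4 were called lower and 0 higher (median -0.35), and 13 were lower and 2 higher at the looser threshold. Zfp36, which destabilises AU-rich mRNAs, had 27.7, 63.3 and 53.1 CPM against 6.55, 12.9 and 14.6 CPM (log2 change -2.11, SE 0.26, adjusted p = 5.82e-06). Jund had 173, 174 and 129 CPM against 35.1, 53.9 and 53.6 CPM (log2 change -1.73, SE 0.21, adjusted p = 4.19e-06), whereas its relative Jun had 44.6, 45.3 and 38.1 CPM against 66.1, 64.9 and 57.0 CPM (log2 change 0.56, SE 0.15, adjusted p = 0.00381), so the 2 AP-1 members lay on opposite sides. Ier3, Btg1 and Id3, all with at most 600 nt, had -0.83, -0.83 and -1.20. The 279 numbered zinc finger proteins had a median of -0.12, and 40 (14.3%) were higher and 47 (16.8%) lower at the looser threshold. Among all nuclear protein-coding genes these shares were 25.8% and 20.8%. Of the zinc finger mRNAs 192 lay below and 87 above the median of their coding-length bin.

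Replication-dependent histone mRNAs end in a stem-loop in place of a poly(A) tail. Of 67 listed genes 7 passed the filter on low values, 4 of these were called lower and 0 higher, and their median was -1.73. Without a filter the median of the list was -0.91. Hist1h1c, a linker histone, had 22.009, 43.7 and 32.8 CPM in sub-polysomal and 8.33, 11.0 and 11.0 CPM in polysomal libraries (log2 change -1.73, SE 0.20, adjusted p = 3.3e-06) and fell short of the size limit without the sub-polysomal library B (log2 change -1.49). Hist1h2bc had 6.77, 4.72 and 3.75 CPM against 2.05, 1.65 and 1.61 CPM (log2 change -1.41, SE 0.34, adjusted p = 0.00223), which did not reach the size limit. Near-identical histone copies share reads, so single members are uncertain.

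Non-coding transcripts took a larger share of the sub-polysomal than of the polysomal pool. The 560 tested long non-coding genes, of the annotated types lincRNA, antisense, processed transcript, bidirectional, sense intronic and sense overlapping, had a median of -1.53, with 189 (33.8%) called lower and 2 called higher. The median without the polysomal library A was -1.31, with 125 called lower. Of 10119 such genes 560 passed the filter, and rare ones can pass through the sub-polysomal libraries alone. Without a filter the median was -0.85. The median was -1.37 for lincRNA, -1.64 for antisense and -1.58 for processed transcript genes. For 49 genes whose type is still to be experimentally settled (TEC) it was -0.25, with 9 called lower. Antisense and overlapping genes may share reads with a coding neighbour, since the strand setting of the counting is not stated. As a share of all counts, genes of types other than protein-coding and outside the mitochondrial genome took 2.44%, 2.57% and 2.78% of the sub-polysomal libraries A, B and C (2.60% ± 0.168, SD, n = 3) and 1.23%, 1.34% and 1.36% of the polysomal libraries (1.31% ± 0.0705, SD, n = 3). The groups did not overlap, and the two-sided exact permutation test gave the smallest p it can, 0.1.

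The host genes of small nucleolar RNAs lay on 1 side throughout. They carry snoRNAs in their introns, start with a TOP motif in several cases, and their spliced RNA holds no long reading frame. All 15 tested host genes (of 18 listed) were lower in each polysomal library than in each sub-polysomal one, 13 were called lower and 0 higher, and the median was -2.91 (-2.62 without the polysomal library A, 12 called). Gas5 had 698, 1166 and 1112 CPM in sub-polysomal and 70.9, 159.9 and 164 CPM in polysomal libraries (log2 change -2.91, SE 0.26, adjusted p = 3.46e-07). Snhg1 had 903, 1202 and 1327 CPM against 114, 239.6 and 245 CPM (log2 change -2.52, SE 0.24, adjusted p = 4.39e-07), and Snhg12 and Epb41l4aos had -3.31 and -4.06. Snhg5, with 385, 384 and 502 CPM against 95.7, 221 and 213 CPM (log2 change -1.27, SE 0.23, adjusted p = 0.000182), was lower at the looser threshold.

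Nuclear and structural RNAs included 7 tested members of 20 listed, with 4 called lower, 0 higher and a median of -1.95. Neat1, the scaffold of paraspeckles, had 75.1, 109 and 162 CPM in sub-polysomal and 19.8, 37.9 and 33.1 CPM in polysomal libraries (log2 change -1.95, SE 0.26, adjusted p = 9.14e-06), and Pvt1 had a log2 change of -1.94. For Malat1, of nuclear speckles, the values overlapped, with 17.5, 11.6 and 27.044 CPM against 7.78, 14.02 and 11.3 CPM (log2 change -0.82, adjusted p = 0.04997). Rn7sk, the RNA that holds the elongation factor P-TEFb inactive, had 14, 27 and 52 counts in sub-polysomal and 3, 1 and 2 counts in polysomal libraries (adjusted p = 2.45e-05). Rpph1, the RNA of ribonuclease P, had 8, 5 and 51 counts in sub-polysomal and 0 counts in each polysomal library (adjusted p = 0.00176), and no fold is given. Its call was lost without the sub-polysomal library C and with limma-voom. Bc1, a short cytoplasmic RNA annotated as a lincRNA at chr7:144914470-144914637 (plus strand, GRCm38), had 336, 377 and 102 CPM against 2.73, 0.687 and 2.36 CPM (log2 change -7.10, SE 0.53, adjusted p = 7.76e-08), the largest change by size of the non-coding genes of at least 5 CPM whose libraries did not overlap. The non-coding D730044K07Rik had a log2 change of -4.60.

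snoRNA genes had a median of -2.40 over 37 tested members, 10 called lower and 0 higher. Only 37 of 1482 snoRNA genes passed the filter, and all 37 had a negative value. A rare gene can pass through the sub-polysomal libraries alone, which favours negative values among the tested members. Without a filter the median was -1.85. snoRNAs that lie in introns may share reads with their host genes. Processed pseudogenes had a median of -0.68 over the 586 of 9927 that passed the filter, with 126 called lower and 5 higher. Without a filter their median was 0.0. Processed pseudogenes resemble their parent mRNAs, and reads may have been assigned to either. Among long non-coding genes that were higher in polysomal RNA at the looser threshold, of which there were 11, was Tug1, with 51.9, 29.3 and 67.1 CPM in sub-polysomal and 74.3, 87.0 and 63.0 CPM in polysomal libraries, which overlapped (log2 change 0.58, SE 0.23, adjusted p = 0.041). It was picked after its values had been seen.

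**Figure D3:**
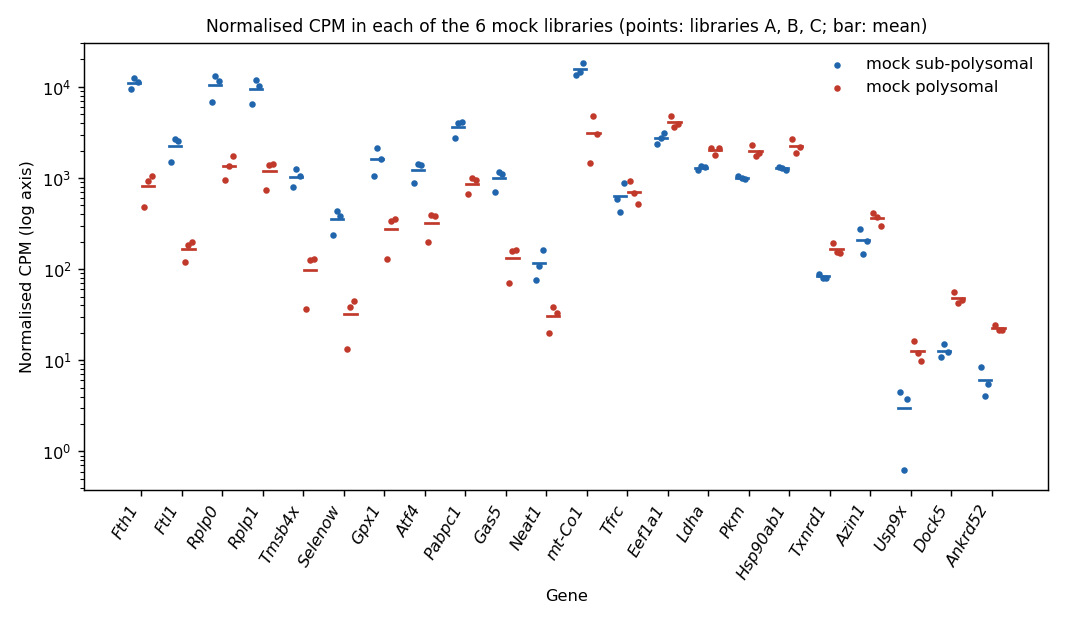
Normalised CPM on a log axis (vertical) of 22 transcripts (horizontal) in each of the 6 mock libraries, with sub-polysomal libraries in blue, polysomal libraries in red and a bar at the mean of each pool. From Fth1 to mt-Co1 each polysomal value lies below each sub-polysomal value, Tfrc overlaps, and from Eef1a1 to Ankrd52 each polysomal value lies above.

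The same comparison in METTL7A1 cells, made on 6 other libraries in the same fit, gave a like order of transcripts. There 215 genes were called higher in polysomal RNA (1.76% of those tested) and 1265 lower (10.3%). Of the 839 genes lower in mock cells 709 were also lower in METTL7A1 cells, that is 84.5% of the mock list and 56.0% of the METTL7A1 list. Of the 84 higher genes 43 were also higher, 51.2% of the mock list and 20% of the METTL7A1 list, and 0 genes were called in opposite directions. Across the 12224 genes Pearson's r of the 2 log2 changes was 0.86 and Spearman's rho 0.84, a description over genes that are not independent and share 1 fit. The medians of the coding-length bins in METTL7A1 cells were -2.01, -0.95, -0.20, 0.21, 0.56 and 0.81, in the same order as in mock cells.

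By class, the median log2 changes in METTL7A1 cells were -1.34 for cytosolic ribosomal proteins, -1.34 for nuclear oxidative phosphorylation, -2.84 for the mitochondrial genome, -2.86 for snoRNA host genes, -1.84 for long non-coding genes and 0.63 for glycolysis enzymes. Fth1 had -3.48 and Ftl1 -4.04, Atf4 -2.67, Selenow -4.02, Pabpc1 -1.70, Gas5 -2.86, Eef1a1 1.44 and Dock5 1.42 as log2 changes in METTL7A1 cells. Whether a class differed between the lines was not tested here.

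**Figure D4:**
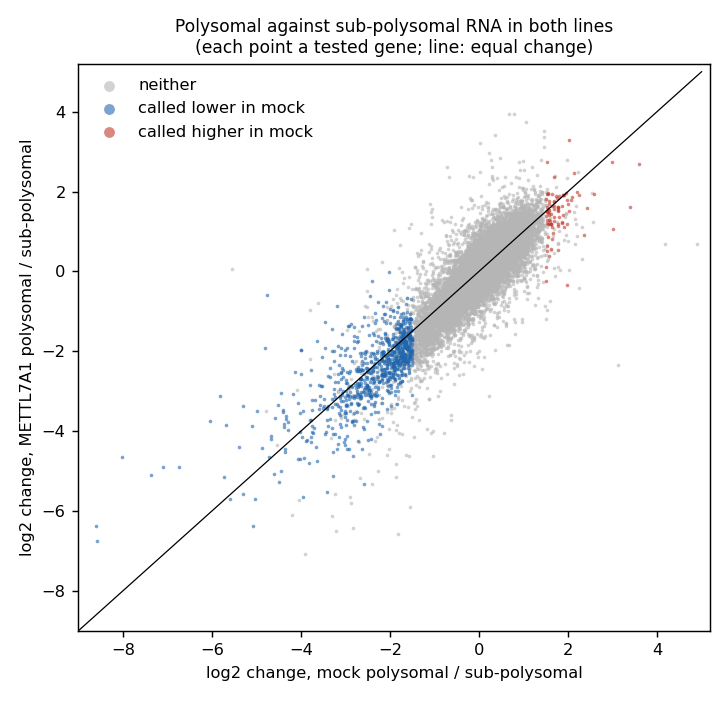
Log2 change between polysomal and sub-polysomal RNA in mock cells (horizontal axis) and in METTL7A1 cells (vertical axis), each point 1 of 12224 tested genes, with the line of equal change. Genes called lower in mock cells (blue, 839) lie in the lower left and genes called higher (red, 84) in the right of the cloud; both axes come from 1 fit, and each uses its own 6 libraries.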

How the data were processed

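RNA was measured in cytoplasmic lysates of 4T1 cells fractionated on sucrose gradients. Per the labels and the study's methods, libraries were stranded total RNA after removal of rRNA, reads were trimmed with BBDuk and aligned with STAR 2.5.3a to GRCm38, and featureCounts assigned them to Ensembl genes (versions from the submitters' processing notes). The authors deposited raw counts per gene with no normalization. The strand and multi-mapping settings of the counting are not given in the sources used here.

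Genes that reached 1 CPM in 3 or more of the 12 libraries were tested with edgeR 4.0.16 (R 4.3.3), TMM factors and the quasi-likelihood test over 4 groups, with Benjamini-Hochberg adjustment over all 12224 genes. Adjusted p-values and log2 changes in the text come from this fit, and CPM values carry TMM scaling. A prior count of 2 was used only for log2 CPM values, as in the comparison of replicate letters. Symbols, lengths and sequences came from GENCODE M21, matched for 55278 of 55376 genes (790 by position), using 1 principal transcript per gene. Shares of counts were compared with an exact permutation test. Intervals of counting error (floors of 3 counts) do not cover PCR duplicates. The script was tested on simulated data.

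The classes and 31 gene lists were chosen with earlier results of these data known. Named genes were the 4 most abundant tested members of each list, the 15 largest changes each way among called nuclear protein-coding genes with at least 5 CPM and no overlap, the 10 largest among non-coding genes, and textbook transcripts. The written rule did not say nuclear. mt-Nd1 would also have met it and is described with the mitochondrial genome. Others were named after their values were seen: Aars, Arpc1b, Cbx5, Cenpm, Cenpw, Eif4g1, Gas2l1, Hspe1, Irak1, Jund, Mrpl42, Mrps31, Pfkl, Ppia, Psmd1, Psmd2, Psmd13, Rpl4, Rpl41, Rps2, Sec61a1, Sec61b, Sec61g, Slc40a1, Srp19, Tagln2, Tug1, Txnrd3 and Zfp36. The distance from coding-length bins and the bins within transcript length were also added after the data were seen. Some named genes are not reported here. Alternatives were DESeq2 1.42.0, limma-voom (limma 3.58.1), RLE and Actb scaling, other filters, thinning, a fit of the compared groups alone, protein-coding genes alone, the replicate letter as a block, and leaving out each library.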

Additional observations from a re-analysis of the deposited data

How the results depend on the processing

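With at least 10 counts required in every library, 25 genes were called higher and 498 lower in mock polysomal RNA (100 and 832 in METTL7A1 cells), and with nuclear protein-coding genes only 531 were called lower in mock cells and 135 higher in METTL7A1 cells. With Actb scaling 81 genes were called higher in METTL7A1 cells, and without a size limit at adjusted p below 0.05 (edgeR) 2850 and 2896 genes in mock and 3670 and 3578 in METTL7A1 cells. Leaving out 1 library gave 61 to 106 higher and 545 to 941 lower genes in mock cells. With the replicate letter as a block the counts were 69 and 747. The labels do not say whether a letter marks the same culture in both pools. Deviations of the same letter in the 2 mock pools correlated at 0.11, -0.11 and -0.29 for A, B and C. Those of unlike letters ran from -0.21 to 0.33. With 3 libraries in each pool, these values cannot settle whether the letters pair the samples. The median of all genes was 0.012 with DESeq2, 0.0 without a filter and after thinning, and -0.0225 with Actb scaling. That of nuclear protein-coding genes was 0.0788 with DESeq2, 0.0791 with RLE factors, 0.0805 without a filter, 0.0766 with at least 10 counts, 0.0808 after thinning, 0.0563 with those genes alone and 0.0424 with Actb scaling. Without a filter the medians were -0.85 for long non-coding genes, -1.85 for snoRNA genes, 0.0 for processed pseudogenes, -0.91 for histones and 0.0 for keratins. Selenoproteins had -0.66 with at least 10 counts and, leaving out 1 library, -0.67 (without polysomal B) to -0.38 (without polysomal A), and nuclear non-coding RNAs -2.86 after thinning. Without the 50 most abundant genes in the denominator the polysomal minus sub-polysomal share was -0.509 percentage points for the mitochondrial genome and -1.66 for non-coding genes. Leaving out 1 library, Tfrc ran from -0.0654 (without polysomal A) to 0.484 (without sub-polysomal C), against 0.17 with all, and was -0.0512 without sub-polysomal B. The cause of these changes was not tested. Of the other class medians under all alternatives, 549 moved by less than 1 SD.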
